A study of Mus musculus with 6 samples.

Results

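The genes described here encode Polycomb repressive complex 2 (PRC2) and its best known partners, 10 in all: the catalytic subunits Ezh1 and Ezh2, the core subunits Eed, Suz12, Rbbp4 and Rbbp7, and the accessory subunits Jarid2, Aebp2, Phf1 and Mtf2. They were chosen by name, each had 1 row among the 24028 genes of the deposited FPKM table, and all 10 passed the filter on low values that left 11334 genes for testing. FPKM are fragment numbers divided by the length of the transcript and by the size of the library. Levels of different genes can be compared only roughly, since the RNA was amplified and the annotation and strand use are not given. The values come from mouse oocytes at the germinal vesicle (GV) stage, in which meiosis is still arrested. The control group is 3 libraries from Ring1 -/-; Rnf2 f/f females, and the double knockout (dKO) group is 3 libraries from Ring1 -/-; Rnf2 f/f; Zp3-cre females, all about 3 months old and of mixed FVB, 129/Sv and C57BL/6J background. Each library pooled 15 oocytes of 1 female, after granulosa cells had been removed by pipetting. Ring1 was deleted in both groups and no library with intact Ring1 was measured. Zp3-cre is driven by a promoter active in growing oocytes, and effects of the transgene itself and of losing Rnf2 cannot be told apart.

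PRC2 places methyl groups on lysine 27 of histone H3, and its trimethylated product H3K27me3 marks silent developmental genes. Ezh1 or Ezh2 supplies the catalytic SET domain, Eed binds the finished mark and stimulates the enzyme, Suz12 holds the complex together, and Rbbp4 or Rbbp7 binds histones. The complex occurs in 2 forms: PRC2.1 carries a Polycomb-like protein such as Phf1 or Mtf2, and PRC2.2 carries Jarid2 and Aebp2. Ring1 and Rnf2, the genes deleted here, encode the catalytic subunits of the other complex, PRC1, which ubiquitinates histone H2A. Each complex can be recruited by the mark of the other, and in the oocyte H3K27me3 can be passed to the embryo as an imprint.

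Promoters were compared because 4 of the 10 transcripts, those of Ezh1, Ezh2, Eed and Aebp2, were lower in every dKO library than in any control, as were 19.2% of all tested genes. So were 1388 of the 5219 tested genes with a mean of at least 10 FPKM. All 10 genes matched the RefSeq promoter table (GRCm38.p6, windows of 300 bases with 50 after the start, on the strand of the gene), with 14 start sites. The 250 bases before the start are shown for Ezh1, Ezh2 and Eed, which have 1 start site each there, and for Ezhip, the gene of a PRC2 inhibitor described below. CpG dinucleotides, which are dense at promoters that Polycomb complexes can bind, are in capitals. Ezh1 lies at chr11:101226464-101226713 (minus strand), Ezh2 at chr6:47595031-47595280 (minus strand), Eed at chr7:89980977-89981226 (minus strand) and Ezhip at chrX:6083421-6083670 (minus strand). The authors' values were made on another build, mm9, so these positions are those of the reference table only.
Ezh1: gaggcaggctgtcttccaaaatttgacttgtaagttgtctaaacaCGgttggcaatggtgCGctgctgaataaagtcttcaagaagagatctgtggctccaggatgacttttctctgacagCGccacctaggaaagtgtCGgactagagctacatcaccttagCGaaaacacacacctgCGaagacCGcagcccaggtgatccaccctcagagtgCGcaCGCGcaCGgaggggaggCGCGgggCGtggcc
Ezh2: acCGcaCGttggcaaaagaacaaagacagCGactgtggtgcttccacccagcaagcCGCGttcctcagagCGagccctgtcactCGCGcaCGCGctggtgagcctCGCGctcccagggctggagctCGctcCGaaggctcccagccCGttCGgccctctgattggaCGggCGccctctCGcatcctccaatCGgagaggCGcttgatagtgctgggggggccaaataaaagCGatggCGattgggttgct
Eed: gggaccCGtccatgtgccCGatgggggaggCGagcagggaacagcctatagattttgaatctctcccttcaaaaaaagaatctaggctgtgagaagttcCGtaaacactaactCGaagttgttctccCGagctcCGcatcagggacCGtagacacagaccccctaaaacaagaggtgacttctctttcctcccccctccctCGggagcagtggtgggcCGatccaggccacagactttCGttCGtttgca
Ezhip: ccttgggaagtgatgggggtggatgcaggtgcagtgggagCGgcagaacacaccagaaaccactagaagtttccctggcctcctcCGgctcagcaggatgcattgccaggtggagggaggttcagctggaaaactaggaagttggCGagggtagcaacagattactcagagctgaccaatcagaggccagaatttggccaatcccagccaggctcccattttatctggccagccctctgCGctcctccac

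The printed stretches hold 14 CpG for Ezh1, 23 for Ezh2, 12 for Eed and 4 for Ezhip. Over whole windows the members' 14 promoters had a median of 23.5 CpG (range 2 to 41) and 63.5% GC. The median was 7 CpG and 52.7% GC over all 32851 promoters of the table. Those promoters belong to 27025 genes and were not limited to the tested ones. The low end came from alternative start sites, since the second site of Mtf2 held 2 CpG and the first and last sites of Aebp2 held 4 each. Motifs were searched on both strands. Those of E2F factors were TTTCGCGC, its variant TTTGGCGC, and the form TTCCCGCC. The others were GCGCATGCG for NRF1, TGACGTCA for the CREB family, and the CCAAT box. CCAAT was present in 9 of the 14 member promoters, beside 37.4% of all promoters, and it appears 3 times in the printed Ezh2 stretch (90 to 86, 64 to 60 and 11 to 7 bases before the start) and 2 times in that of Ezhip. TTTGGCGC was found in the Ezh2 window alone among the members, beside 0.514% of all promoters, and lies outside the printed stretch. The other 4 motifs were in no member window and in 0.323% to 2.19% of all promoters, and the Ezh1 and Phf1 windows held no motif of those searched.

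The targeted gene followed its labels. Rnf2 stood at 53.7, 46.8 and 48.2 FPKM in the control libraries 1 to 3, against 14.8, 8.44 and 5.31 FPKM in the dKO ones (limma adjusted p = 0.000696). Ring1 was at 0.240 FPKM or less in all libraries, in both groups alike. The sums of FPKM were 318273 to 327480 in controls and 278701 to 309549 in dKO libraries, absolute depth is unknown, and the relative depth read from low values was 0.674, 0.818 and 1.09 of control 1 in dKO libraries 1 to 3. Oocyte markers were present in all libraries, with Gdf9 at 1179 FPKM or more and Zp3 at 707 FPKM or more. All 12 of them had a lower mean in dKO oocytes, of which 2 fell past the threshold, with summed levels of 8816 to 9127 FPKM in controls and 5479 to 7403 FPKM in dKO libraries. Of 14 granulosa and cumulus markers 7 passed the filter. Nr5a2 rose, and so did Fshr, Inhba and Has2, which were under 1 FPKM in all controls and passed the filter only through dKO libraries. The markers had sums of 26.5 to 33.2 FPKM in controls and 50.7 to 52.0 FPKM in dKO libraries. Nr5a2 and Cyp19a1 were the most abundant of them in controls, Fshr went from 0.158 ± 0.0183 to 10.6 ± 1.23 FPKM (SD, n = 3), and the defining markers Foxl2 and Amhr2 were at 0.586 FPKM or less. Cyp19a1 went the other way, at 7.60 to 11.3 FPKM in controls and 5.23 to 6.19 FPKM in dKO libraries. It was the only 1 of the 7 tested with a negative change, just outside the threshold (limma adjusted p = 0.05004). Of 17 markers of theca, stroma, endothelium and blood, 3 were tested, Nr2f2 rose and Pecam1 fell. The sums were 23.8 to 30.9 FPKM in controls and 21.3 to 29.4 FPKM in dKO libraries. Pecam1 was the largest part of each sum, at 20.6 to 28.3 FPKM in controls and 13.0 to 17.8 FPKM in dKO libraries. Nr2f2, which passed the filter only through dKO libraries, stood at 0.506 to 0.545 and 3.49 to 6.84 FPKM. Under the filter, Kdr, Ptprc, Pdgfra, Col1a1 and Dcn were higher in all dKO libraries than in any control, at 1.89 FPKM or less. The rest of the list overlapped between the groups. The part of these shifts in the values of the PRC2 genes was not tested.

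All 10 subunit transcripts were still measured in dKO oocytes, with group means between 63.1% and 109% of the control means. Of the 10 subunit genes, 0 rose and 1, Eed, fell (limma, Benjamini-Hochberg adjusted over all tested genes). At an unadjusted p under 0.05, 0 were higher and 3 lower, where 19.8% and 15.6% of all tested genes were. Of the 5219 tested genes with a mean of at least 10 FPKM, 524 were higher and 1119 lower by that measure. Over all tested genes 21.0% were called, 14.0% as higher and 7.04% as lower in dKO oocytes, so 1 call among 10 members is not above the background. The members' median log2 change was -0.28 (range -0.65 to 0.13), beside -0.019 over all tested genes and -0.14 over the 5219 tested genes with a mean of at least 10 FPKM. That level applies to 9 of the members, the exception being Rbbp4. Changes are differences in log2(FPKM + 1), dKO minus control. The call count was 0 when control replicate 1, 2 or 3 was left out and after quantile normalization, and 4 (Ezh1, Eed, Aebp2 and Phf1, all lower) without dKO replicate 2.

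**Figure D1:**
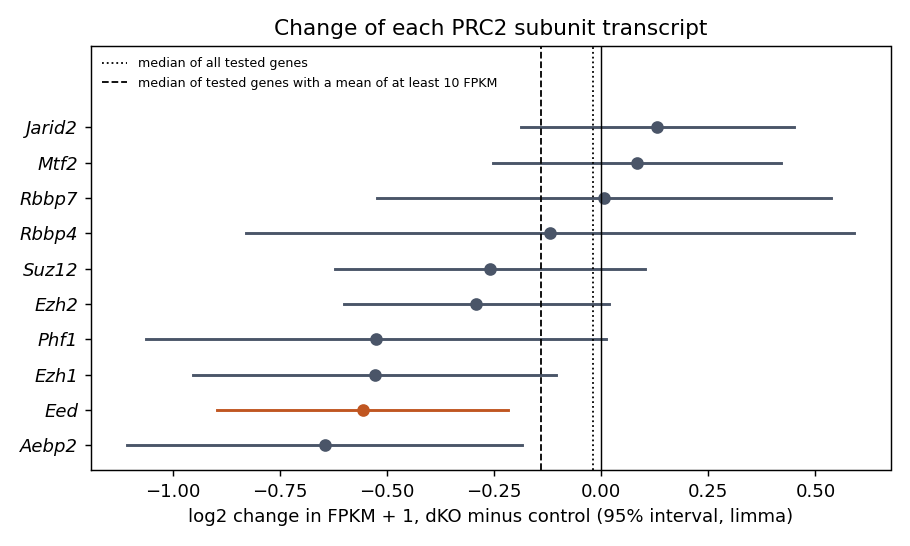
Log2 change of each PRC2 subunit transcript (x axis, dKO minus control, FPKM + 1) with its 95% interval from limma, 1 row per gene. Eed, in orange, is the only one past the threshold, and the dotted and dashed lines mark the medians of all tested genes (-0.019) and of those with a mean of at least 10 FPKM (-0.14).

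In levels the subunits spanned a wide range. Control means ran from 312 FPKM for Rbbp7, at rank 123 of the tested genes, to 6.39 FPKM for Rbbp4, at rank 6294. The order in controls was Rbbp7, Ezh2, Suz12, Phf1, Eed, Jarid2, Mtf2, Ezh1, Aebp2 and Rbbp4. Neighbours whose control libraries overlapped, and so cannot be ordered, were Suz12 and Phf1, Eed and Jarid2, and Ezh1 and Aebp2. The other 6 neighbouring pairs did not overlap in controls. In bulk libraries of pooled oocytes scaled to their totals, fewer cells of a type and less RNA per cell cannot be told apart.

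**Figure D2:**
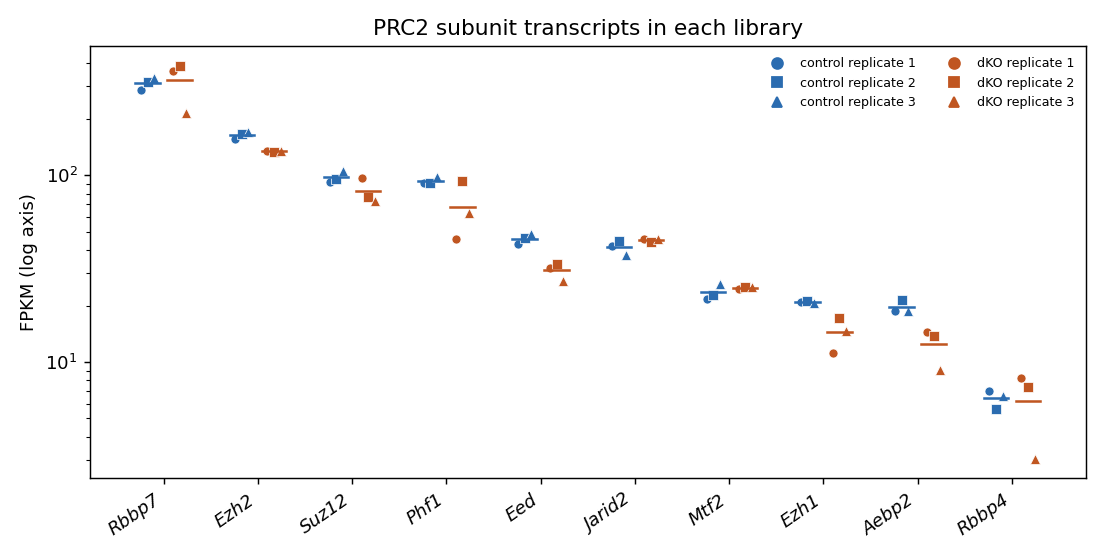
FPKM of the 10 subunit genes (log axis) in each of the 3 control and 3 dKO libraries, with horizontal bars at the group means. Rbbp7 and Ezh2 are highest and Rbbp4 lowest in all 6 libraries.

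Of the catalytic pair, Ezh2 was the more abundant and both transcripts were lower in all dKO libraries. Ezh2, the main methyltransferase of dividing cells, stood at 157, 167 and 171 FPKM in the control libraries 1 to 3, against 136, 134 and 134 FPKM in the dKO ones. The groups did not overlap, and the dKO mean was 81.6% of the control mean. The log2 change was -0.29 ± 0.14 (SE; interval -0.60 to 0.018; limma adjusted p = 0.162), which did not pass the threshold. Ezh1, the paralogue common in resting cells and the weaker enzyme, stood at 20.9, 21.4 and 20.6 FPKM in the control libraries, against 11.2, 17.3 and 14.7 FPKM in the dKO ones. Here too the groups did not overlap, with the lowest value in dKO replicate 1. The log2 change of Ezh1 was -0.53 ± 0.19 (SE; interval -0.95 to -0.11; limma adjusted p = 0.0774). It was past the threshold without dKO replicate 2 (limma adjusted p = 0.0295), with each library centred on its mean (0.0289) and with median-ratio scaling over all genes (0.0402).

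The balance between the catalytic paralogues overlapped between the groups. Ezh2 made up 88.3%, 88.7% and 89.2% of the summed Ezh1 and Ezh2 FPKM in controls and 92.3%, 88.5% and 90.1% in dKO libraries. The difference of 1.62 percentage points had an exact two-sided permutation p of 0.3, and 3 libraries against 3 cannot give less than 0.1. As a ratio, Ezh2 exceeded Ezh1 by 7.52 to 8.29 times in controls and by 7.73 to 12.1 times in dKO libraries, the highest in dKO replicate 1. Of 3 such shares tested, each had an adjusted exact p of 0.5.

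Eed carried the only call among the subunits. Its product is the WD40 protein that reads H3K27me3 and switches on the enzyme. Eed stood at 43.0, 46.5 and 48.3 FPKM in the control libraries 1 to 3, against 31.9, 33.8 and 27.3 FPKM in the dKO ones. All dKO values lay under all control values, and the dKO mean was 67.5% of the control mean. The log2 change was -0.56 ± 0.15 (SE; interval -0.90 to -0.22; limma adjusted p = 0.0297). The call was lost with the replicate number, which marks a shared flow-cell lane, as a block (limma adjusted p = 0.0522), after quantile normalization over tested or all genes (0.0531 and 0.0524) and without control replicate 1, 2 or 3 (0.0881, 0.129 and 0.138). Leaving out 1 dKO library kept it (0.0220 to 0.0379). In GRCm38 annotation the noncoding gene E230029C05Rik overlaps Eed exons on the other strand, and it was listed at 0 in all 6 libraries.

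Suz12, the scaffold of the complex, stood at 92.4, 96.3 and 105 FPKM in the control libraries, against 96.9, 76.3 and 73.4 FPKM in the dKO ones. The groups overlapped through dKO replicate 1, and the log2 change was -0.26 ± 0.16 (SE; interval -0.62 to 0.10; limma adjusted p = 0.275). The ratios among the core subunits were as follows. Ezh2 exceeded Eed by 3.54 to 3.66 times in controls and by 3.97 to 4.93 times in dKO libraries, and Suz12 exceeded Eed by 2.07 to 2.18 times in controls and by 2.26 to 3.04 times in dKO libraries. Neither ratio overlapped between the groups. Both divide by Eed, already seen to be lower in all dKO libraries, and 41.5% of single tested genes did not overlap either. The ratio of Ezh2 to Suz12 did overlap, at 1.62 to 1.73 in controls and 1.4 to 1.83 in dKO libraries. These ratios were computed after the levels had been seen and were not tested.

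Rbbp7 and Rbbp4 are histone-binding WD40 proteins that PRC2 shares with several other chromatin complexes. Rbbp7 stood at 285, 317 and 334 FPKM in the control libraries, against 364, 388 and 217 FPKM in the dKO ones. The dKO group thus held both the highest and the lowest value, and the log2 change was 0.0061 ± 0.23 (SE; interval -0.52 to 0.54; limma adjusted p = 0.989). Rbbp4 stood at 6.97, 5.64 and 6.57 FPKM in the control libraries, against 8.21, 7.40 and 3.04 FPKM in the dKO ones. As for Rbbp7, dKO replicates 1 and 2 were above all controls and dKO replicate 3 below them, and the log2 change was -0.12 ± 0.31 (SE; interval -0.83 to 0.59; limma adjusted p = 0.813). Without dKO replicate 3 the log2 change of Rbbp4 was 0.25 (limma adjusted p = 0.344). Rbbp7 made up 97.6% to 98.3% of the pair in controls and 97.8% to 98.6% in dKO libraries (difference 0.20 percentage points, exact two-sided permutation p = 0.5). In ratio, Rbbp7 exceeded Rbbp4 by 40.9 to 56.3 times in controls and by 44.4 to 71.3 times in dKO libraries. The 3 dKO libraries thus lay inside the control range but for dKO replicate 3.

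Of the PRC2.2 subunits, Aebp2 had lower values in dKO oocytes and Jarid2 did not. Jarid2, a catalytically inactive member of the Jumonji family that helps bring PRC2 to chromatin, stood at 42.0, 44.3 and 37.5 FPKM in the control libraries, against 45.5, 44.1 and 46.0 FPKM in the dKO ones. The groups overlapped through control replicate 2, and the log2 change was 0.13 ± 0.14 (SE; interval -0.19 to 0.45; limma adjusted p = 0.542). Aebp2, a zinc finger protein that stabilises the complex, stood at 18.9, 21.5 and 18.8 FPKM in the control libraries, against 14.4, 13.8 and 9.09 FPKM in the dKO ones. All dKO values lay under all control values, and the dKO mean was 63.1% of the control mean, the lowest share among the members. The log2 change of Aebp2 was -0.65 ± 0.20 (SE; interval -1.11 to -0.19; limma adjusted p = 0.0530), just outside the threshold. It was inside with the replicate block (limma adjusted p = 0.0477), with median-ratio scaling over tested genes (0.0378), array weights (0.0472), median-ratio scaling over all genes (0.0213) or centred libraries (0.0188), and without dKO replicate 1 (0.0429) or 2 (0.0477). Jarid2 exceeded Aebp2 by 1.99 to 2.23 times in controls and by 3.16 to 5.05 times in dKO libraries. This ratio, which divides by the lower Aebp2 values, did not overlap and, chosen after the levels were seen, was not tested. The ratio of Jarid2 to Mtf2 did overlap, at 1.43 to 1.94 in controls and 1.75 to 1.84 in dKO libraries.

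The PRC2.1 subunits Phf1 and Mtf2 are Polycomb-like proteins that bind CpG-rich DNA and methylated lysine 36 of histone H3. Phf1 stood at 91.5, 91.6 and 97.8 FPKM in the control libraries, against 45.9, 93.3 and 63.0 FPKM in the dKO ones. Replicates 1 and 3 of the dKO group were below all controls and replicate 2 was within their range, and the log2 change was -0.53 ± 0.24 (SE; interval -1.06 to 0.010; limma adjusted p = 0.148). Without dKO replicate 2 it was -0.79 and past the threshold (limma adjusted p = 0.0167), and without dKO replicate 1 it was -0.28 (0.330). Mtf2 stood at 21.9, 22.9 and 26.2 FPKM in the control libraries, against 24.8, 25.1 and 25.3 FPKM in the dKO ones. The dKO values lay inside the control range, and the log2 change was 0.084 ± 0.15 (SE; interval -0.25 to 0.42; limma adjusted p = 0.716). Jarid2 and Aebp2 together made up 34.9%, 36.5% and 31.3% of the FPKM of the 4 accessory genes in controls and 45.9%, 32.9% and 38.4% in dKO libraries, a difference of 4.82 percentage points (exact two-sided permutation p = 0.4).

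**Figure D3:**
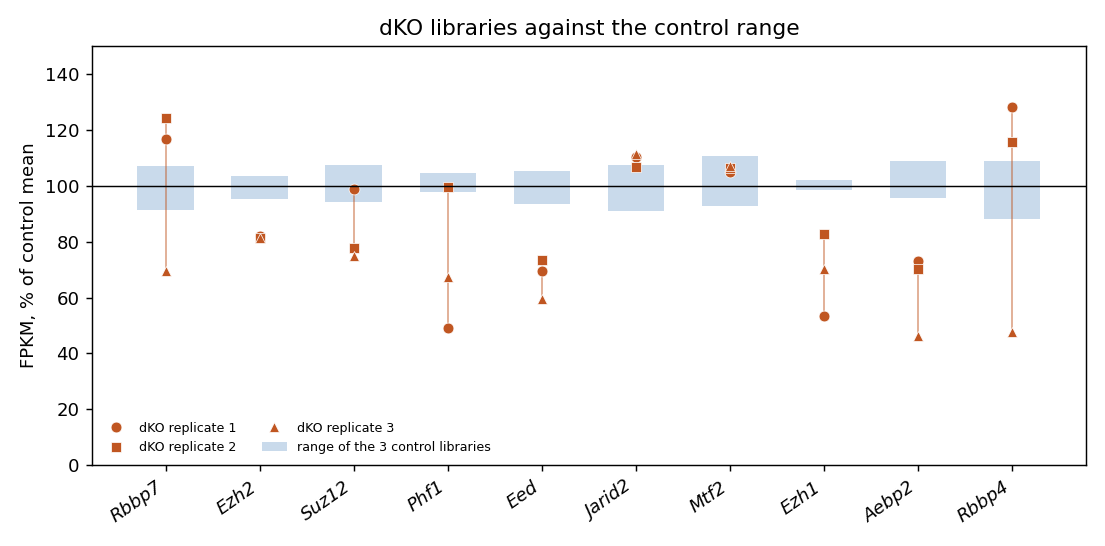
FPKM of each dKO library as a percentage of the control mean (y axis) for the 10 subunit genes, with the range of the 3 control libraries shaded. Ezh1, Ezh2, Eed and Aebp2 lie under the shaded range in all 3 dKO libraries, and Rbbp7 and Rbbp4 lie on both sides of it.

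Across the members, 4 of 10 had groups that did not overlap, all 4 lower in dKO oocytes. Over all tested genes the share without overlap was 41.5%, and 19.2% were lower without overlap. Of the 5219 tested genes with a mean of at least 10 FPKM, 1388 were lower without overlap. The spread among dKO libraries differed widely between members. The coefficient of variation among dKO libraries was 0.610% for Ezh2, 1.0% for Mtf2 and 2.14% for Jarid2, but 44.7% for Rbbp4, 35.7% for Phf1 and 28.6% for Rbbp7. Among controls it was 1.79% to 10.7% over the 10 genes, and 7 of the 10 varied more in the dKO group. Replicate 3 of the dKO group held the lowest value of all 6 libraries for 5 members (Eed, Suz12, Rbbp4, Rbbp7 and Aebp2) and the highest for Jarid2. The lowest value was in dKO replicate 1 for Ezh1 and Phf1, and in dKO replicate 2 for Ezh2. Exons of 7 members overlap another annotated gene, all on the other strand. Where the partner was in the table it is Cuta for Phf1, Sync for Rbbp4, Tmed5 for Mtf2 and Txlng for Rbbp7, besides the partner of Eed. The use of strand is not given, so reads of such pairs cannot be told apart. Ezh1, Jarid2 and Aebp2 had no such overlap.

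Among other PRC2 genes, the transcript of the inhibitor was by far the most abundant. Ezhip, listed under its older symbol AU022751, encodes a protein that binds the catalytic subunit and blocks its activity. It stood at 596, 845 and 718 FPKM in the control libraries, against 425, 654 and 648 FPKM in the dKO ones, which put it at rank 32 of the tested genes in controls. The groups overlapped, and the log2 change was -0.33 ± 0.23 (SE; interval -0.87 to 0.20; limma adjusted p = 0.338). Ezhip exceeded Ezh2 by 3.79 to 5.06 times in controls and by 3.14 to 4.88 times in dKO libraries, and exceeded Eed by 13.3 times or more in all 6. Of 5 other PRC2 genes 4 were tested, and 0 rose and 0 fell (limma), where 14.0% and 7.04% of all tested genes did. At an unadjusted p under 0.05 the counts were also 0, beside 19.8% higher and 15.6% lower over all tested genes. With so few genes, counts of 0 do not set the list apart from those shares. The third Polycomb-like gene Phf19 was at 1.73 to 5.34 FPKM, Lcor, whose locus also encodes a PRC2.1 subunit, at 5.28 to 9.01 FPKM, and its relative Lcorl at 1.6 to 3.85 FPKM over the 6 libraries.

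Epop, a PRC2.1 partner listed as E130012A19Rik, was under the filter. Of the 5 other PRC2 genes it differed most as a percentage of the control mean, which was near 0 FPKM. It stood at 0.227, 0.151 and 0.178 FPKM in the control libraries, against 1.92, 2.05 and 0.880 FPKM in the dKO ones. The groups did not overlap, as for 41.5% of all tested genes. The dKO mean was 873% of the control mean, at a level still far under that of the core subunits. In the fit with no filter its log2 change was 1.11 ± 0.21 (SE; limma adjusted p = 0.0240). In that fit 2006 of all 20310 genes rose.

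Of 3 genes for enzymes that remove H3K27 methylation 2 were tested, 0 rose and 1 fell (limma), where 14.0% and 7.04% of all tested genes did. Kdm6b, a demethylase, stood at 46.5, 46.6 and 63.2 FPKM in the control libraries, against 26.9, 35.5 and 37.7 FPKM in the dKO ones, and fell, its log2 change being -0.63 ± 0.19 (SE; limma adjusted p = 0.0478). That call was lost under 12 of 18 alternatives (limma adjusted p up to 0.201), among them the removal of any 1 control or of dKO replicate 1 or 2. Kdm6a, its X-linked relative, stood at 91.9, 98.1 and 96.5 FPKM in the control libraries, against 58.3, 67.9 and 82.0 FPKM in the dKO ones (log2 change -0.47 ± 0.16; limma adjusted p = 0.0724, and past the threshold under 3 of 18 alternatives). Neither gene overlapped between the groups, both being lower in dKO libraries. The same held for 19.2% of all tested genes, and for 1388 of the 5219 with a mean of at least 10 FPKM. The third gene, Uty on the Y chromosome, was at 0.125 FPKM or less throughout.

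Of the chromodomain genes whose products read H3K27me3 within PRC1, Cbx2 had the highest level of the 4 given here, at 41.3, 42.3 and 38.0 FPKM in controls and 32.2, 50.7 and 33.9 FPKM in dKO libraries (limma adjusted p = 0.779). Cbx7 was at 1.24 to 2.88 FPKM in controls and 2.54 to 6.97 FPKM in dKO libraries (limma adjusted p = 0.221). Neither reader tested rose or fell (limma; 0 at an unadjusted p under 0.05). Over all tested genes 14.0% rose and 7.04% fell, so 2 genes without a call are not set apart from the rest. Cbx6 and Cbx8 were under the filter. Cbx6 was at 0.0136 FPKM or less in controls and 0.0323 to 0.186 FPKM in dKO libraries, without overlap, and was not past the threshold with no filter (limma adjusted p = 0.121). Cbx8 was at 0.345 to 0.659 FPKM and 0.40 to 1.43 FPKM, with overlap.

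**Figure D4:**
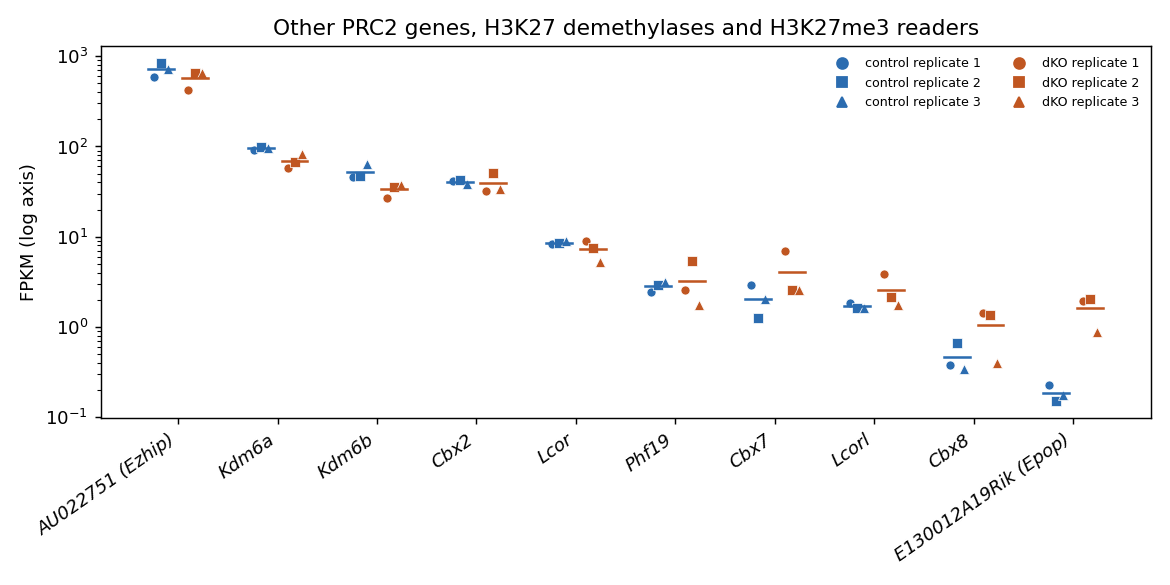
FPKM (log axis) of other PRC2 genes, H3K27 demethylases and H3K27me3 readers in each of the 3 control and 3 dKO libraries, with horizontal bars at the group means. Ezhip (AU022751) is highest at 425 to 845 FPKM, and Epop (E130012A19Rik) is higher in all dKO libraries than in any control.

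Rbbp4 and Rbbp7 also serve the histone deacetylase complexes NuRD and Sin3, the chaperone CAF-1 and other complexes. Of 20 partner genes from those complexes 18 were tested, 1 rose and 3 fell (limma), with a median log2 change of -0.097. Over all tested genes 14.0% rose and 7.04% fell, 21.0% in either direction. Sap30, a subunit of the Sin3 complex, rose from 52.8, 67.2 and 65.8 FPKM in controls to 168, 128 and 142 FPKM in dKO libraries. Its log2 change was 1.22 ± 0.17 (SE; limma adjusted p = 0.00113), and the call held under all 18 alternatives. The 3 that fell belong to NuRD, but the other tested NuRD genes of the list had no call. Of these, Hdac1 had a dKO mean of 104% of the control mean, Hdac2 116%, Chd4 110% and Mbd3 99.2%. Mta1 was at 78.1%, Chd3 at 87.6% and Mta2 at 175%. Mta3 stood at 88.5 to 90.8 FPKM in controls and 45.1 to 67.0 FPKM in dKO libraries (log2 change -0.72; limma adjusted p = 0.0173), Gatad2b at 363 to 461 and 196 to 312 FPKM (-0.68; 0.0475) and Gatad2a at 67.2 to 85.5 and 43.5 to 54.1 FPKM (-0.55; 0.0440). Mta3 lost its call without any 1 control (limma adjusted p up to 0.0773), and Gatad2a and Gatad2b lost theirs under 11 of 18 alternatives each, Gatad2a with the replicate block among them (0.0530).

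Genes listed as imprinted through maternal H3K27me3, the mark that PRC2 makes, form the last list. The filter favours those silent in controls and higher in dKO oocytes. With no filter, 27 of the 29 listed were tested, of which 17 rose and 0 fell (limma). In that fit 2006 of all 20310 genes rose and 545 fell. Among them Rbms1 stood at 0.323 to 1.14 FPKM in controls and 12.0 to 16.3 FPKM in dKO libraries, Sall3 at 0.0818 to 0.269 and 8.99 to 10.6 FPKM, and Clic6 at 0.0178 FPKM or less and 5.78 to 9.20 FPKM. With the filter Myo10 fell, from 65.8 to 71.6 FPKM in controls to 11.4 to 46.5 FPKM in dKO libraries. Its call was lost when control replicate 1, 2 or 3 (0.0761 to 0.0815) or dKO replicate 3 (0.0577) was removed, and with no filter (limma adjusted p = 0.0961). H3K27me3 itself was not measured here.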

How the data were processed

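RNA of 15 pooled GV oocytes per library was amplified and sequenced, per the labels' protocols. The deposited values are FPKM, 1 column per library. TopHat2 2.0.11, Cufflinks 2.0.2 and build mm9 are named per the submitters' processing notes. For their roles, the annotation, strand use and any scaling across libraries, the entry is: not given in the sources used here.

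Of 24525 table lines, 497 repeated another in full and were removed. The filter asked for 1 FPKM or more in 3 or more libraries. On log2(FPKM + 1), limma 3.58.1 (R 4.3.3) gave a two-sided test with a variance trend and no pairing, with Benjamini-Hochberg adjustment over all 11334 kept genes and a threshold of 0.05. The code was tested on simulated data. Intervals are 95%. This scale understates changes of low genes. Shares were compared by exact permutation over libraries without pairing, and by a sign-flip test over same-numbered pairs. Symbols were matched through RefSeq synonyms, and exon overlaps come from the GENCODE annotation of GRCm38.

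Per the labels, libraries of the same number shared a sequencing lane, so the numbers pair them. Deviations of same-numbered libraries correlated at 0.147, 0.107 and 0.0637. Each group carried a single index sequence, and its effect and that of genotype cannot be told apart. Each library came from 1 mouse, per the labels' protocols, which do not say that no mouse gave more than 1 library. The members and lists were chosen with earlier results of these data known. All 10 members, Rnf2, Ring1 and the genes of the other PRC2, demethylase and reader lists are named, but for a gene not reported here, with up to 3 rises and 3 falls of both longer lists and the 2 most abundant of each marker list. Fshr, Inhba, Has2, Foxl2, Amhr2, Kdr, Ptprc, Pdgfra, Col1a1 and Dcn were named after their values were seen. So were the NuRD genes without a call.

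Alternatives were other pseudocounts, filters, scalings and variance models, a replicate block, and leaving out single libraries. Centring on the library mean was added after seeing the data. Median-ratio and quantile scaling were first computed over all genes and, after those results had been seen, over the tested genes. Both versions are reported, and the second is the one named without further words.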

Additional observations from a re-analysis of the deposited data

How the results depend on the processing

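Of 180 combinations of a subunit gene and an alternative, 156 kept direction and side of the threshold, 6 lost a call (all Eed), 11 gained one (Ezh1, Aebp2, Phf1) and 7 changed sign. The cause was not tested. On the log2 scale Rbbp4 was 0.25 without dKO replicate 3 and ranged from -0.34 on removal of 1 library. Rbbp7 ranged from -0.15 to 0.27 on such removal, and was -0.099 with centred libraries and -0.076 with median-ratio scaling over all genes. Mtf2 was -0.021 with centred libraries. Phf19 was -0.23 after quantile normalization over tested and over all genes, -0.061 with centred libraries, -0.023 with median-ratio scaling over all genes, and -0.30 to 0.31 on removal of 1 library. Cbx2 was 0.022 and 0.025 after quantile normalization over tested and all genes, and -0.29 to 0.032 on removal of 1 library. The count of called subunits, 1, became 2 with median-ratio scaling over tested genes or array weights, 3 with that scaling over all genes or centred libraries, 0 after either quantile normalization, and 0 to 4 on removal of 1 library. With the replicate block it was 1, Aebp2 in place of Eed. Of the 16 other genes refitted with the block (those of the other lists, not the cell markers), Gatad2a lost its call (limma adjusted p = 0.0530) and the rest stayed on the same side of the threshold.

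Over all genes the 1587 rises among 11334 tested genes became 655 among 7418 with the filter at 5 FPKM, where the falls were 559. The 798 falls became 1572 with centred libraries, 1276 with median-ratio scaling over all genes, 258, 262 and 231 without control replicates 1 to 3 and 1465 without dKO replicate 2. Rises were 66.5% of the calls, but 52.6% and 54.6% after quantile normalization over tested and all genes, 54.4% with median-ratio scaling over all genes and 48.0% with centred libraries, which moved the median of all genes from -0.019 to -0.12. The share was 78.6% with no filter and 54.0% with the filter at 5 FPKM. Without control replicates 1 to 3 it was 81.5%, 80.6% and 82.7%, and without dKO replicate 2 it was 51.7%. The 20 calls over the 5 other gene lists became 11 with the filter at 5 FPKM. The Rbbp7 share differed by -0.019 to 0.391 percentage points on removal of 1 library, negative only without dKO replicate 3. The Ezh2 share differed by 0.612 and 2.52 points without dKO replicates 1 and 2, and the share of Jarid2 and Aebp2 by 1.39 and 7.92 points. Absolute depth is unknown, which limits what can be said of low values such as those of Epop.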
